A study of Arabidopsis thaliana with 5 samples.

Results

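Many AtSMOS1 peaks in Arabidopsis seedlings lay beyond the 3′ ends of genes, at places where no SCL28 peak was called. Of 5438 peaks called on chromosomes 1 to 5 in the first AtSMOS1-GFP library, 4408 overlapped a peak of the second AtSMOS1-GFP library by 1 bp or more. Of these, 4107 overlapped no peak of either SCL28-GFP library, and 3655 of the 4107 had a protein-coding gene as the nearest annotated gene. In 737 of them the summit, the highest point of the peak, lay beyond the 3′ end of that gene, and these 737 AtSMOS1-only downstream peaks (13.6% of the 5438) at 664 genes are described here. They were chosen by the peak calls of the AtSMOS1-GFP and SCL28-GFP libraries and by summit position, so that presence in both AtSMOS1-GFP replicates, absence of SCL28-GFP peaks and position beyond the 3′ end are not findings.

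The study mapped genomic binding of both proteins by chromatin immunoprecipitation and sequencing (ChIP-Seq), to ask at which genes they act together. Chromatin of whole Col-0 seedlings was precipitated with an anti-GFP antibody from a line expressing AtSMOS1-GFP from its own promoter (labelled SNOS1-GFP, 2 replicates) and from a line expressing SCL28-GFP (labelled E1M-GFP, 2 replicates), and total chromatin of Col0 plants without a transgene served as WT input (1 sample). The promoter of the SCL28-GFP line is given as that of RPS5A in one place and as that of SCL28 in another, and the number of independent transgenic lines was not given in the sources used here. Whole seedlings mix all tissues, and no immunoprecipitate from plants without GFP was analysed here. Inside both replicate 2 lists, the identifiers of the peaks name the protein of the other line. Of the 396 SCL28-GFP peaks of replicate 2, however, 90.9% overlapped a replicate 1 peak of the same line, and the sample labels were followed. The lists hold no read counts, so that the number of reads behind a single peak cannot be given; read totals per library are stated by the study but were not used here.

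AtSMOS1 is a transcription factor of the AP2 type and SCL28 is a GRAS protein, a plant family that includes the DELLA growth repressors. Both belong to families of plant regulators of growth. A sequence-specific factor is usually thought of as acting at promoters, but in a compact genome the stretch after one gene is often also the stretch before the next, and a peak can therefore lie downstream of its nearest gene and upstream of the neighbour. When both genes point the same way (tandem), the peak lies upstream of the neighbour. When the genes converge (tail-to-tail), it lies downstream of both.

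The sequences under the strongest peaks show what was and was not shared among them. Shown are the 120 bases around the summit, on the plus strand of the TAIR10 chromosome sequence, 5′ to 3′, for the 4 highest-ranked of the 12 strongest peaks whose window lay wholly outside annotated genes. Capitals mark the G-box CACGTG (a site of bHLH and bZIP factors), the site II element TGGGCC and the TCP consensus GTGGNCC (both sites of TCP factors; where N is G the TCP consensus contains the site II element), each searched on both strands.
AT5G54760, chr5:22245955-22246074: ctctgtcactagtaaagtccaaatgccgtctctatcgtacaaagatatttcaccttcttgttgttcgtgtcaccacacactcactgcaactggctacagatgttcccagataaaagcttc
SBH2, chr1:4879734-4879853: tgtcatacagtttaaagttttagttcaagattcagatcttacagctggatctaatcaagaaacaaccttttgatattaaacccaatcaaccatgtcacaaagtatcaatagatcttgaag
AT5G53750, chr5:21819369-21819488: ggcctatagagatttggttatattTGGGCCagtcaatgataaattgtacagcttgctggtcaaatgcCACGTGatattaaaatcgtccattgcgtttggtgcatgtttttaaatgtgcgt
DOF1, chr1:19175259-19175378: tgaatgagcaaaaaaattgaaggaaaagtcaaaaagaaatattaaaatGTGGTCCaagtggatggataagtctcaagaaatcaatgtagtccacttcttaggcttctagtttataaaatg
The summit window at AT5G53750 held a G-box and a site II element, that at DOF1 a TCP consensus, and those at AT5G54760 and SBH2 held none of them. A further 4 windows were chosen after the motif shares were known, as the strongest other peaks with a G-box within 25 bp of the summit and no annotated gene in the window.
ASY3, chr2:19298895-19299014: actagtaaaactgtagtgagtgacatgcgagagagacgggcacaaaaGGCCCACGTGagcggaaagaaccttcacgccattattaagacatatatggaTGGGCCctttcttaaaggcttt
AT4G34310, chr4:16419799-16419918: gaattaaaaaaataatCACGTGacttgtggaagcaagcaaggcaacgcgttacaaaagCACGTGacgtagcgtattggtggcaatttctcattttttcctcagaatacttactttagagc
AT5G56990, chr5:23059415-23059534: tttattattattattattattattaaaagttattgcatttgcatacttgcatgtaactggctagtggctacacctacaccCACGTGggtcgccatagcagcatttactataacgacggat
EIF3K, chr4:16038489-16038608: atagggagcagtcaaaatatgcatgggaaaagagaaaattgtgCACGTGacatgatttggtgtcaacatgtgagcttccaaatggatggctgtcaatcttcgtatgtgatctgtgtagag
The peak after ASY3, a gene of meiotic chromosome axes, lies 1097 bp upstream of PIL1, which encodes a bHLH factor of the phytochrome-interacting kind, and its G-box overlaps a site II element and a TCP consensus read on the other strand. For contrast, the next windows are from downstream AtSMOS1 peaks that SCL28 shared, picked as the strongest with the 12-bp motif of the study near the summit, where capitals also mark that motif, which the study derived from the common targets.
AT2G22660, chr2:9631513-9631632: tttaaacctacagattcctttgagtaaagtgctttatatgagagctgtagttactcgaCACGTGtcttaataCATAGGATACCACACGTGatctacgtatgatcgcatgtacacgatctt
OVA5, chr3:4395008-4395127: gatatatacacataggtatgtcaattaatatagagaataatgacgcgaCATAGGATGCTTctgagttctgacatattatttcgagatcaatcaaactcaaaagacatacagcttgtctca
At AT2G22660 the motif stood between a pair of G-boxes and ran directly into the second of them, whereas at OVA5 the window held the motif alone.

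The 12 strongest AtSMOS1-only downstream peaks, ranked by the lower of their fold enrichments in the 2 replicates (the height of the peak over the control, as the peak caller wrote it), lay next to genes of varied function. The highest was 24 bp beyond the 3′ end of PFK4, a phosphofructokinase gene, at chr5:24763942-24764409, with a fold enrichment of 9.12 in replicate 1 and 8.08 in replicate 2. It lay tail-to-tail with AT5G61590, whose end was 64 bp away. The peak after SBH2, a sphingoid base hydroxylase gene, had 8.44 and 7.24 and faced the end of PKS2, a phytochrome kinase substrate gene, at a distance of 487 bp. At AT5G54760, a translation initiation factor gene, the values were 7.25 and 7.84, and the start of the thiazole synthesis gene THI1 was 504 bp from the summit. The peak after AT5G53750 had 7.25 and 7.17, and that after DOF1, a zinc finger factor gene, had 7.01 and 7.17. In each of these 5 the replicates were close to each other relative to the range over all 737 peaks. A ranking by the lower value picks peaks that are high in both replicates, so this closeness does not measure how well the replicates agree.

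The other strong peaks lay by genes of equally varied kinds. The peak 1063 bp beyond ATE1 had fold enrichments of 6.90 and 7.02 and lay upstream, by 4659 bp, of CPD, a brassinosteroid synthesis gene. That after AT5G55220 had 7.01 and 6.31, with MAP65-1, a microtubule-bundling protein gene, starting 997 bp away. The peak after AT3G59880 had 6.77 and 6.89 and lay tail-to-tail with the microRNA gene MIR827 at 409 bp. The remaining 4 were at FLA18 (7.51 and 6.50), a cell wall arabinogalactan protein gene, CYP71B22 (6.53 and 6.46), emb2170 (6.39 and 6.83) and NAC3 (6.15 and 6.57), a NAC factor gene.

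Over all 737 peaks, the fold enrichment was 2.21 to 9.12 in replicate 1 with a median of 3.77, and 1.86 to 8.09 in replicate 2 with a median of 3.75. The middle of the distribution was narrow, with quartiles of 3.23 and 4.55 in replicate 1 and of 3.21 and 4.40 in replicate 2. The median −log10 q, the caller's measure of confidence, was 4.61 in replicate 1 and 8.00 in replicate 2. Peaks were 109 to 1025 bp wide with a median of 215 bp. Across the 737 peaks, which share their libraries and are not independent, Pearson's r between the replicates' fold enrichments was 0.577 and Spearman's rho 0.465. The summits of the replicates were a median of 51 bp apart, and within 100 bp of each other in 575 peaks. In 670 peaks (90.9%) the summit of replicate 2 was again beyond the 3′ end of a protein-coding gene, and in 662 beyond that of the same gene.

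**Figure D1:**
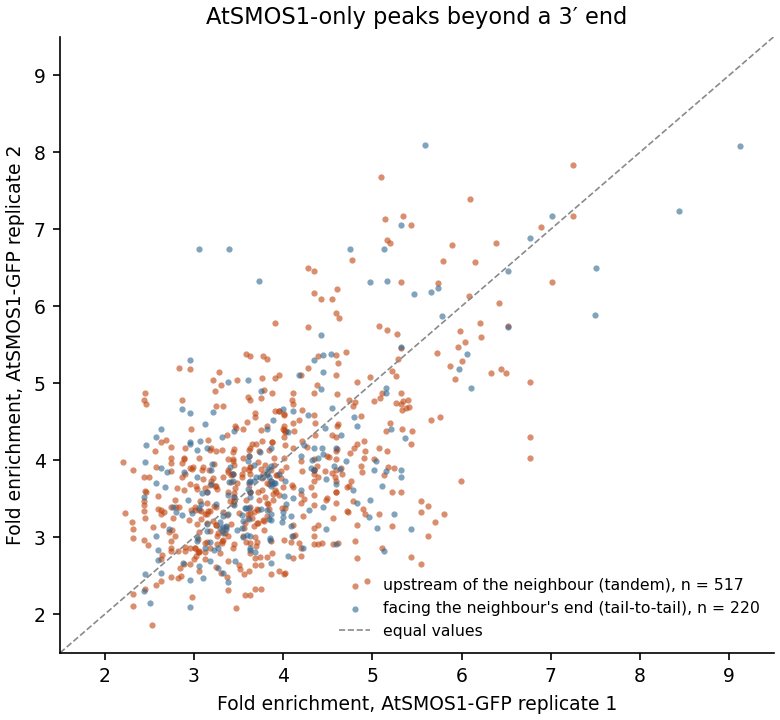
Fold enrichment of each of the 737 AtSMOS1-only downstream peaks in AtSMOS1-GFP replicate 1 (horizontal) and in its overlapping peak of replicate 2 (vertical), coloured by whether the neighbouring gene is tandem (517 peaks) or tail-to-tail (220 peaks). Most peaks lie between 3 and 5 in both libraries, the highest replicate 1 value is tail-to-tail at 9.12 against 7.25 for the highest tandem peak, and the dashed line marks equal values.

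The replicates differed most at a wide region after AGC1.7, a protein kinase gene. Replicate 1 had 5 separate peaks there, with fold enrichments of 3.06 to 5.14, whereas 4 of them fell on a single replicate 2 peak at chr1:29804555-29809005 with a fold enrichment of 6.74, whose summit was 1977 to 3577 bp away from theirs. In all, the 737 peaks fell on 712 replicate 2 peaks, and 47 of them shared theirs with another member. Other large differences were 5.55 in replicate 1 and 2.66 in replicate 2 after the glutamate receptor gene GLR2.7, 6.77 and 4.03 after HSL1, and 5.44 and 2.75 after AT4G20000. Of the 664 genes, 604 had 1 peak, 50 had 2, 8 had 3, 1 had 4 and 1 had 5. GLN1;4, a glutamine synthetase gene, had 4 peaks in the long gap before KAN, with fold enrichments of 3.03 to 5.90 in replicate 1 and of 3.23 to 6.79 in replicate 2. CENP-C had 3, which shared 1 replicate 2 peak, SQE3 had 3 in the gap before the ethylene synthesis gene ACS8, and AT1G32650 had 3 in the gap before MYC2, the jasmonate-pathway bHLH factor gene.

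Summits lay 2 to 60758 bp beyond the 3′ end, with a median of 418 bp. They were within 200 bp of the end in 235 peaks (31.9%), within 1000 bp in 552 (74.9%) and within 5000 bp in 735. The closest were 2 bp beyond AT3G17450, 3 bp beyond the histone gene AT5G59690 and 4 bp beyond AT2G31981. The farthest were 4821 bp beyond nMAT1, 5061 bp beyond AT5G45350 and 60758 bp beyond AT4G06744. The position rule cut through a continuous distribution, as 59 summits lay in the first 50 bp beyond a coding gene and 73 AtSMOS1-only summits in the last 50 bp inside one. Just inside were summits at ARF2 (0 bp from the end, 4.26 and 2.91 fold), RIPK (1 bp, 2.96 and 3.88) and MNS2 (1 bp, 4.63 and 3.64). The peak itself reached into its own gene in 145 cases (19.7%).

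The neighbour on the far side of the summit was tandem in 517 of 737 peaks (70.1%, 95% Clopper-Pearson interval 66.7 to 73.4), and was itself protein-coding in 481 of them. These peaks were thus also upstream of another gene. For comparison, 66.9% of the 770 WT input summits beyond coding 3′ ends were tandem (63.4 to 70.2). Of the downstream territory in bases, counted at every distance from the gene, 62.5% was tandem. In the other 220 (29.9%) it was tail-to-tail, so that the peak lay downstream of genes on either side. A promoter-like distance was less frequent: the start of the tandem neighbour was within 1000 bp of the summit in 146 peaks (19.8%) and within 500 bp in 76 (10.3%). In tandem peaks the median distance to that start was 1765 bp, and the median distance to the own 3′ end was 419 bp. The nearest-gene rule put the own end at least as near as that start. The order of these medians and the smaller share of near starts are therefore not findings. Where the gap was short, the peak was close to both genes. The summit after NADK3 was 10 bp beyond its end and 41 bp before LZF1, a light-regulated zinc finger gene (6.09 and 7.39 fold), and that after UMAMIT28 was 274 bp beyond its end and 299 bp before LHY, a gene of the circadian clock (5.76 and 4.56). These 2 were named after their values were seen. Tandem and tail-to-tail peaks had median fold enrichments of 3.77 and 3.77 in replicate 1, and of 3.77 and 3.73 in replicate 2.

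The peaks thinned out with distance from the gene, and more so than peaks of the input. Counted per Mb of gap whose nearest gene is the coding gene in question, AtSMOS1-only summits numbered 73.2 within 200 bp of the 3′ end (exact 95% Poisson interval 64.1 to 83.1), 58.3 between 200 and 500 bp, 51.8 between 500 and 1000 bp, 49.5 between 1000 and 2000 bp, 20.0 between 2000 and 5000 bp (14.8 to 26.4) and 0.496 beyond 5000 bp (0.0601 to 1.79). WT input summits (against what these were called was not given in the sources used here) in the same gaps numbered 39.9 within 200 bp (33.2 to 47.4), 42.8 between 2000 and 5000 bp and 29.8 beyond 5000 bp (24.7 to 35.6). Over the whole downstream territory of 18.2 Mb the figures were 40.5 per Mb for AtSMOS1-only and 42.4 for input summits. The first 200 bp beyond 3′ ends, with 73.2 AtSMOS1-only summits per Mb, were less dense than the first 200 bp upstream of coding genes, which held 144 (132 to 156) and where input summits numbered 60.9. Between 500 and 1000 bp, downstream stretches held 51.8 (43.7 to 60.9), compared with 69.9 (62.4 to 78.1) upstream. Intervals cover counting error only. Pseudogenes were left out of the genes used, so the bases they cover count as gap.

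**Figure D2:**
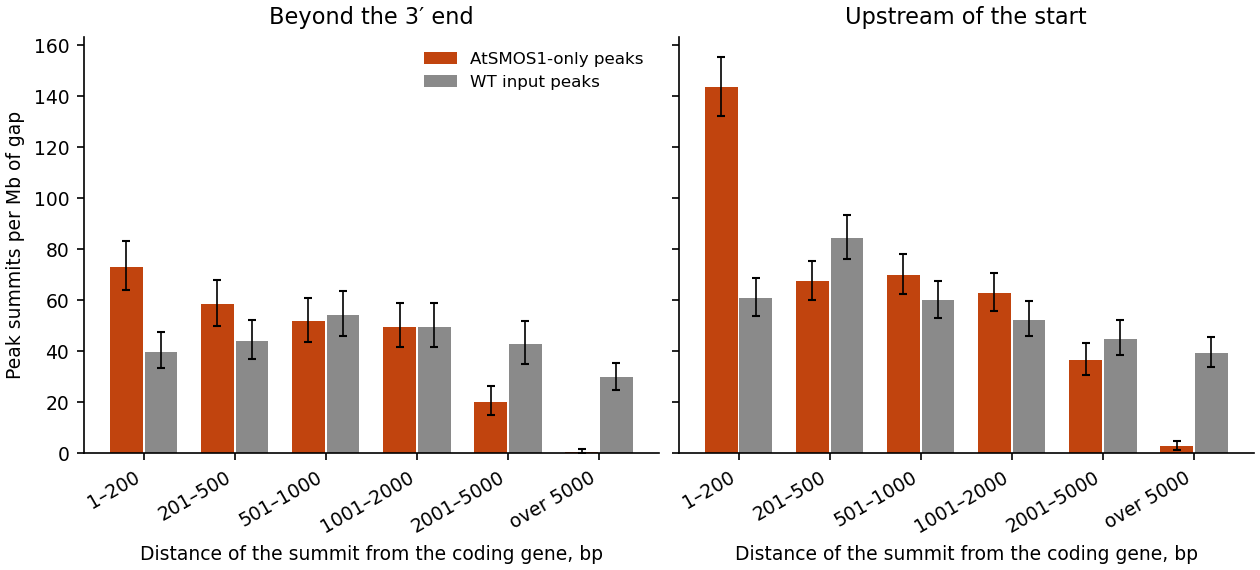
Peak summits per Mb of gap between genes (vertical) by distance in bp from the nearest protein-coding gene (horizontal), beyond its 3′ end on the left and upstream of its start on the right, for AtSMOS1-only peaks and WT input peaks, with exact 95% Poisson intervals as bars. AtSMOS1-only summits are densest in the first 200 bp on either side (73.2 per Mb beyond the 3′ end and 144 upstream) and almost absent beyond 5000 bp (0.496 and 2.75), where input summits still number 29.8 and 39.4.

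Gaps of different arrangement differed in density as well. AtSMOS1-only peaks numbered 32.3 per Mb of tail-to-tail downstream territory (28.2 to 36.9) and 45.5 per Mb of tandem downstream territory (41.6 to 49.6), and the input showed the same order, with 37.4 (33.0 to 42.3) and 45.3 (41.5 to 49.4). Stretches beyond 5000 bp made up 2.03 of 6.81 Mb of tail-to-tail and 2.00 of 11.4 Mb of tandem territory. They held 0 and 2 AtSMOS1-only peaks, and the totals were not adjusted for this. Between 500 and 1000 bp the order was the other way, with 68.2 (52.1 to 87.6) in tail-to-tail and 44.1 (35.1 to 54.5) in tandem territory. In tandem gaps as a whole, 44.9% of 1386 AtSMOS1-only summits lay nearer to the 3′ end of the gene before than to the start of the gene after, compared with 43.8% of 1434 input summits.

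In strength and reproducibility, no difference between the downstream peaks and AtSMOS1-only peaks elsewhere was detected. The other classes were 1212 peaks within 1000 bp upstream of a coding gene, 436 farther upstream and 1270 inside one. Before the second library was required, 737 of 904 downstream peaks (81.5%) were also called in replicate 2, against 79.6% within 1000 bp upstream, 85.2% farther upstream and 78.8% inside genes. Over all 5438 peaks the share was 81.1%, and that condition is part of the rule. The replicate 2 fold enrichment was above the common median of 3.71 in 52.0% of downstream peaks, against 48.7%, 52.5% and 49.2% of the same classes. A WT input peak overlapped 2 of the 737 downstream peaks (0.271%), those at TCP9 and FAP3, compared with 0.497% of all 5438. The largest of these differences was −3.63 percentage points (95% Newcombe interval −7.51 to 0.481) in the share called in replicate 2 against peaks farther upstream, and none of the 12 two-sided Fisher exact tests passed after Benjamini-Hochberg adjustment (adjusted p of 0.593 to 1). Tests of input overlap and of the study's motif, given below, are among these 12. They rest on few or no hits in any class and could show little. The intervals still allow differences of several percentage points in the share called in replicate 2 and in the share above the median fold enrichment. Peak widths had medians of 215 bp downstream and of 212 to 218 bp in the other classes.

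**Figure D3:**
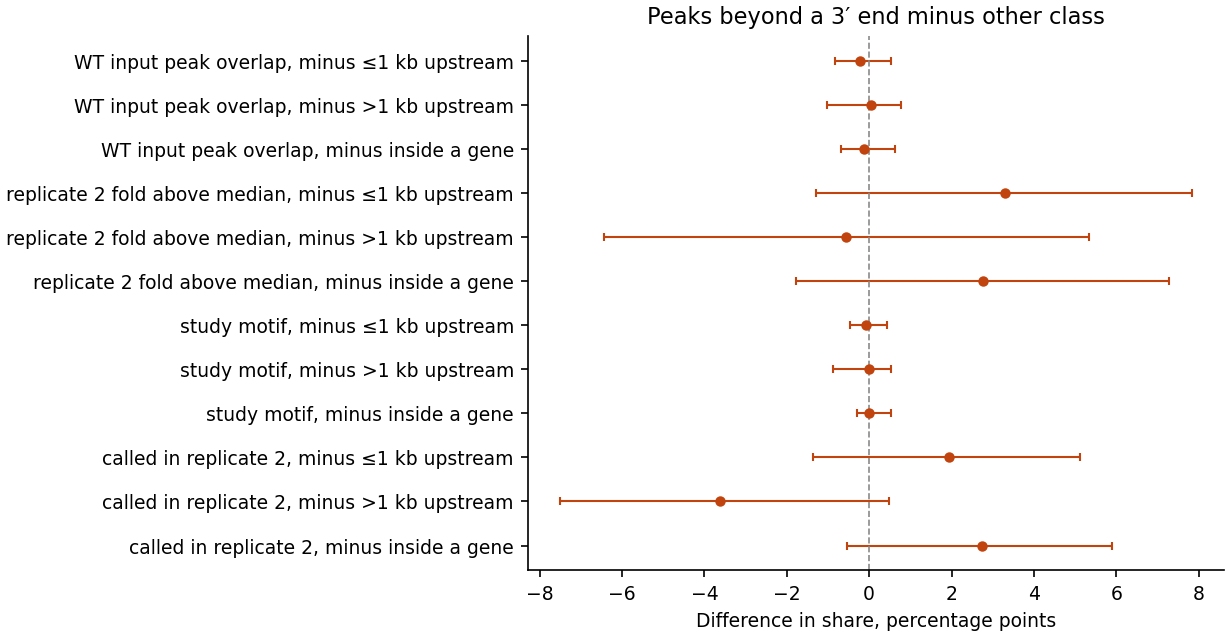
Differences in percentage points (horizontal) between the AtSMOS1-only downstream peaks and each other class of AtSMOS1-only peaks (vertical), for 4 shares, with 95% Newcombe intervals as bars. All 12 intervals include 0, shown by the dashed line, and the estimates run from −3.63 to 3.29.

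No exact copy of the motif of the study was found at the summits of the AtSMOS1-only downstream peaks. An exact match within 200 bp centred on the summit was found in 0 of 737 (upper exact 95% bound 0.499%), in 1 of 1212 peaks within 1000 bp upstream and in none of the 436 farther upstream or the 1270 inside genes. Over all 5438 peaks of the library, SCL28-shared peaks included, 1.05% had a match. Downstream AtSMOS1 peaks called in both replicates that did overlap an SCL28 peak numbered 62, and 11 of these (17.7%, 9.20 to 29.5) held the motif. The study derived the motif from such common targets, and this share is therefore not an independent result. Its central letters GGATNC were in 13.8% of the AtSMOS1-only downstream windows (11.4 to 16.5), in 64.5% of the SCL28-shared ones (51.3 to 76.3), and in 13.9% of 8682 windows of the same length placed 418 bp beyond the 3′ ends of all coding genes with room for them. The full motif was in 0.196% of these 8682 windows (0.114 to 0.313), below the upper bound of 0.499%. The 0 of 737 therefore does not separate the downstream peaks from such windows. Allowing 1 mismatch to the full motif gave 4.48% of AtSMOS1-only and 35.5% of SCL28-shared downstream windows. The other AtSMOS1-only classes were near the former, with 3.63% within 1000 bp upstream, 3.67% farther upstream and 3.46% inside genes.

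Other letters were frequent under these summits. The G-box CACGTG was present in 114 of 737 windows (15.5%, 12.9 to 18.3), compared with 1.96% (1.68 to 2.27) of the windows 418 bp beyond all coding 3′ ends and 5.39% of WT input summits. The TCP consensus GTGGNCC, searched after its letters had appeared in the count of words given next, was in 15.1% (12.6 to 17.9), against 2.63% of the windows beyond all 3′ ends and 5.25% of input summits. The site II element TGGGCC was in 11.3%, against 3.94% and 5.16% in the same comparisons. At least 1 of the 3 was in 240 downstream peaks (32.6%), compared with 7.49% of windows beyond all 3′ ends. Both G-box and TCP consensus were in 22. The G-box shares of the other AtSMOS1-only classes were 18.2% within 1000 bp upstream, 16.3% farther upstream and 11.7% inside genes, and those of the TCP consensus were 12.5%, 16.3% and 9.45%, so that neither was particular to downstream peaks. Site II shares in these classes were 11.9%, 7.34% and 7.80%. The W-box TTGACC, a site of WRKY factors, was in 12.5% of the downstream peaks, against 7.74% of windows beyond all 3′ ends, and the core AACGG of the element bound by MYB3R factors was in 12.5%, against 13.5%. The GCC-box GCCGCC, bound by ERF proteins of the AP2 superfamily, was in 1.49%, against 1.09%. The DRE core, a site of other proteins of that superfamily, was in 12.3% (10.1 to 14.9), against 7.82% (7.26 to 8.41). In the other AtSMOS1-only classes, in the order above, the W-box was in 14.1%, 11.7% and 11.4%. The DRE core was there in 15.4%, 11.2% and 14.4%, so neither was particular to downstream peaks. The DRE core was in 23.9% of input summits. All input shares given here are of the 5695 input summits on chromosomes 1 to 5, wherever they lay. Their windows had a median GC content of 49%, against 34.5% in the downstream peaks, so they are not a matched comparison.

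**Figure D4:**
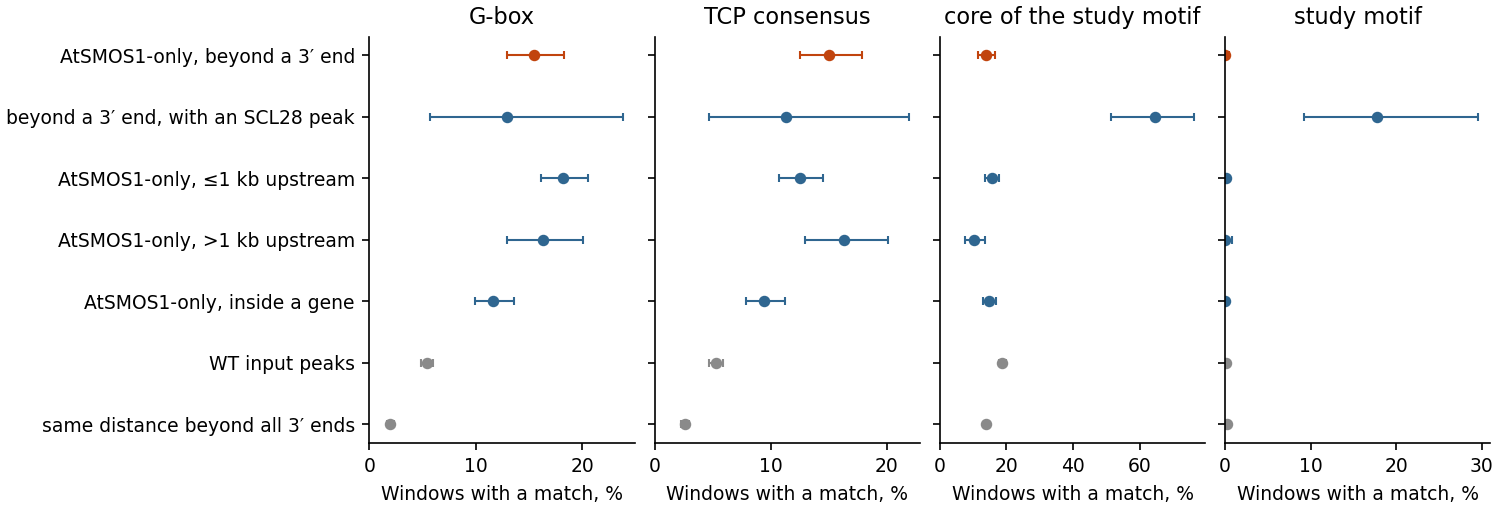
Share of 200-bp windows with at least 1 match on either strand (horizontal, percent, with 95% Clopper-Pearson intervals) for the G-box, the TCP consensus, the core letters of the study's motif and the whole motif, in 7 sets of windows (vertical). The G-box and TCP consensus are near 15% in AtSMOS1-only downstream peaks and near 2% beyond 3′ ends in general, whereas the study's motif and its core are high only in the peaks shared with SCL28.

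These matches gathered at the summit. Per 1000 downstream peaks there were 57.0 and 58.3 G-boxes in the 50-bp steps on either side of the summit, falling to 12.2 and 8.14 in the outermost steps 250 to 300 bp away. In windows beyond all coding 3′ ends the count was 4.95 to 7.37 at every step. The TCP consensus had 52.9 and 54.3 at the summit and 6.78 and 10.9 at the outermost steps. The site II element had 47.5 and 42.1 at the summit, but reached 31.2 again 200 to 250 bp to one side of it. In 42 of the 114 peaks with a G-box its centre was within 25 bp of the summit.

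**Figure D5:**
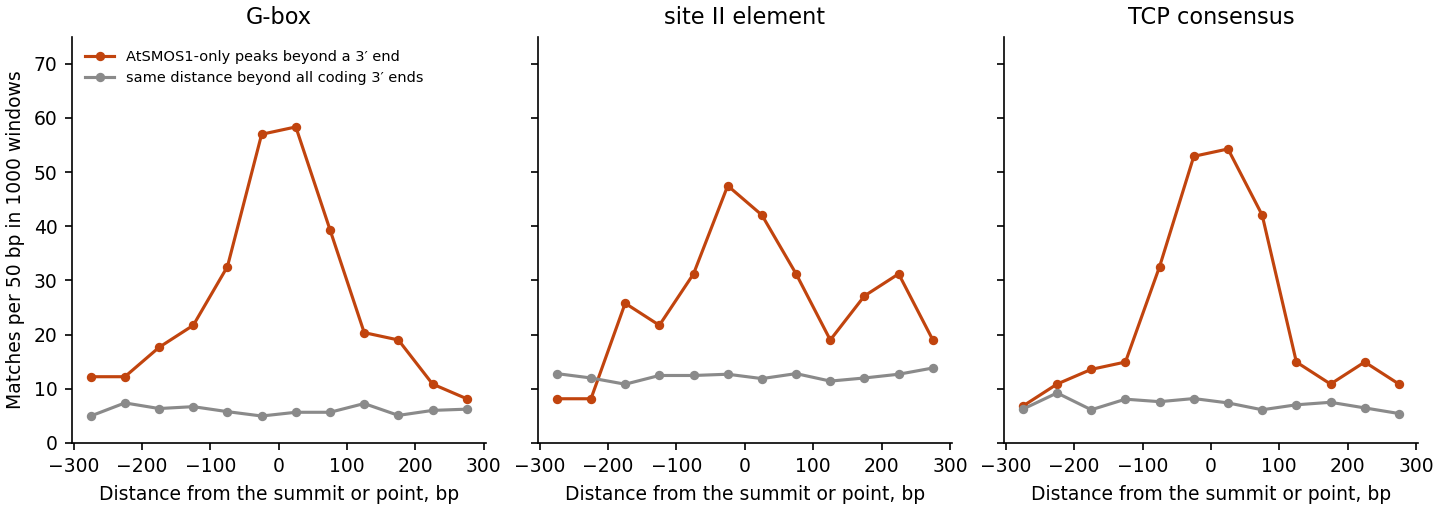
Matches per 50-bp step in 1000 windows (vertical) by distance in bp from the summit (horizontal) for the G-box, the site II element and the TCP consensus, in the 737 AtSMOS1-only downstream peaks and in 8682 windows centred 418 bp beyond coding 3′ ends. The downstream peaks reach 58.3, 47.5 and 54.3 next to the summit, whereas the other windows stay flat at 4.95 to 13.8.

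Base composition moved with these shares. The windows had a median GC content of 34.5% in downstream peaks and 30.5% beyond all coding 3′ ends. Among windows of 30 to 35% GC, the G-box was in 9.94% of 312 downstream peaks (6.85 to 13.8), against 1.94% of 2678 other windows (1.45 to 2.54). Among windows of 35 to 40% GC it was in 20.9% of 258 peaks (16.1 to 26.4), against 3.17% of 1419 (2.32 to 4.22). The TCP consensus was in 12.2% and 19.4% of the peaks in these 2 ranges, against 3.06% and 4.79% of the other windows. For the site II element the intervals overlapped at 30 to 35% GC, with 6.73% (4.21 to 10.1), against 4.14% (3.42 to 4.97). At 35 to 40% GC it was in 14.0% (9.97 to 18.8), against 7.82% (6.48 to 9.34). Below 30% GC, where 3808 of the 8682 other windows but only 86 of the peaks lay, the intervals overlapped, with a G-box in 3.49% of the peaks (0.725 to 9.86), against 0.893% (0.619 to 1.25), and a TCP consensus in 1.16% (0.0294 to 6.31), against 0.945% (0.663 to 1.31). The site II element was there in 2.33% (0.283 to 8.15), against 1.13% (0.818 to 1.52). When every 6-letter word present in at least 5% of the downstream peaks was ranked by its share there over its share beyond all 3′ ends, CACGTG came first of 1218 words, at a ratio of 7.90. GGACCC followed with 10.3%, against 1.68%. GACAGC was in 10.6% of the downstream peaks, against 2.11% of the windows beyond all 3′ ends. In 435 downstream peaks called in replicate 2 and not in replicate 1, which are not among the 737, CACGTG was in 52, while GGACCC was in 9.89% and GACAGC in 3.91% of those peaks. Median fold enrichments were 3.69 and 3.82 in replicates 1 and 2 for peaks with a G-box, and 3.78 and 3.73 for peaks without. Ranked by the lower fold enrichment, the highest 184 peaks had a G-box in 14.1% and the lowest 184 in 14.1%.

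Peaks with a G-box lay by genes of several kinds. The 5 strongest were after AT5G53750, ATE1, NADK3, AT5G65650 (5.78 and 5.88 fold) and AT4G17440 (6.04 and 5.54), the last in the long gap before the homeobox gene HAT1. ASY3 had 5.16 and 5.70, and AGO6, an Argonaute gene of small-RNA silencing, had 4.60 and 4.86. PETE1, which encodes a plastocyanin of photosynthetic electron transport, had a pair of such peaks 774 and 185 bp beyond its end, with replicate 1 values of 5.16 and 4.12. The peak after ZPR1, which encodes a small leucine zipper protein, had 3.88 and 3.69 and its G-box was 19 bp from the summit. ATE1, too, had a second peak with a G-box, 215 bp beyond its end (3.63 and 4.78).

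The gene of the partner protein, SCL28, was itself among the 664. A peak at chr1:23397432-23397585, 1618 bp beyond the 3′ end of SCL28 (AT1G63100), had fold enrichments of 2.74 in replicate 1 and 3.97 in replicate 2, below the median of downstream peaks in replicate 1 and above it in replicate 2. Its other neighbour was PP2-A11. None of the 23 SIM/SMR and KRP genes matched in the annotation, which encode inhibitors of cyclin-dependent kinases, had an AtSMOS1-only downstream peak. The study describes peaks of both proteins on the 3′ side of SMR6, SMR9 and SMR14 and on both sides of SMR8 and SMR13. For SMR13 and SMR14 it saw them by eye, as these genes did not meet its ChIP-Seq criteria. The rule left out AtSMOS1 peaks that overlap an SCL28 peak and used called peaks only, so the 0 does not mean that AtSMOS1 is absent there. Over all coding genes the share with an AtSMOS1-only downstream peak was 2.42% (664 of 27444). A list of 23 genes would thus hold few if any, and the count of 0 separates these genes from no others. Of 55 genes for cyclins and their kinases 2 had one, CDC2, the A-type cyclin-dependent kinase gene (150 bp beyond the end, 4.76 and 3.73 fold), and CAK4, a kinase that activates others of this type (2.83 and 2.82).

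Regulators of transcription and hormone genes were found in small numbers. GRAS genes made up 4 of the 664 genes (0.602%), against 0.120% of all 27444 coding genes, with RGA1, a DELLA repressor of gibberellin responses (5.18 and 3.92 fold), HAM3 (3.62 and 4.06) and SCL14 (4.09 and 3.28) beside SCL28. AP2/ERF genes made up 6 (0.904%), against 0.397%, among them ERF4 (4.38 and 4.98) and CRF10 (4.31 and 3.90). Homeobox genes made up 12 (1.81%), against 0.758%, with ANL2 (5.34 and 4.77), HAT9 and HAT3. There were 10 MYB genes (1.51%, against 0.652%), with MYB102 and MYB114, and 3 bHLH genes (0.452%, against 0.485%), with HBI1, a growth-promoting factor, at 5.73 and 6.30. Among 11 auxin genes (1.66%, against 0.689%) were ARF6, an auxin response factor gene, at 30 bp beyond the end (4.20 and 4.06), and the auxin-conjugating enzyme gene GH3.17 (4.01 and 4.30). Of other hormone genes there were 3 (0.452%, against 0.375%): GA20OX3 of gibberellin synthesis (6.06 and 5.39), the jasmonate repressor gene JAZ7 (4.55 and 4.33) and CKX7 of cytokinin breakdown (3.91 and 5.78). Among the coding neighbours on the far side of tandem peaks, AP2/ERF genes numbered 9 (2.10%, against 0.397% of all coding genes), homeobox genes 12 (2.80%, against 0.758%), protein kinase genes 24 (5.61%, against 3.26%) and genes for F-box, RING or U-box proteins 10 (2.34%, against 4.33%). These counts are descriptions and were not tested. They take no account of gap length. Of tandem gaps, 0.812% of those below 500 bp and 7.22% of those of 2000 to 5000 bp held a downstream peak. In tail-to-tail gaps the shares were 0.980% and 12.5%. Whether gap length differs between the lists was not tested.

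The remaining lists held between 0 and 27 of the 664 genes. Cell wall genes made up 15 (2.26%, against 1.69%), with the xyloglucan enzyme gene XTH7 at 5.66 and 6.19, and protein kinase genes 27 (4.07%, against 3.26%), with BAM2 at 5.93 and 5.06. Of 522 zinc finger genes 12 had a peak, close to the 2.42% of all coding genes, with BBX29 at 5.73 and 5.40, and genes for F-box, RING or U-box proteins 21 (3.16%, against 4.33%). WRKY, bZIP and NAC genes were 6 (0.904%, against 0.889%), transporter genes 10 (1.51%, against 2.02%) and genes for cytochromes P450 or glycosyltransferases 9 (1.36%, against 1.36%). Of 344 ribosomal protein genes 3 had a peak (0.452%, against 1.25%), and photosynthesis genes made up 3 (0.452%, against 0.288%), with LHCB2.1 at 4.83 and 3.16. Histone and chromatin genes made up 4 (0.602%, against 0.630%), and light and clock genes 0 of 40. Over the lists with members, the median of the lower fold enrichment ran from 2.99 for histone and chromatin genes to 4.61 for bHLH genes, against 3.41 over all downstream peaks.

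Some genes with a downstream peak carried another AtSMOS1 summit. Of the 664 genes, 95 (14.3%, 11.7 to 17.2) also had a summit called in both replicates within 1000 bp upstream of their own start, compared with 7.27% of all protein-coding genes. A summit inside the gene was present in 101 (15.2%, 12.6 to 18.2), compared with 4.51% of all. The genes themselves were a median of 2179 bp long, against 2078 bp over all coding genes. AtSMOS1 peaks of either kind, SCL28-shared or not, were counted here, and the 664 genes were chosen for a peak nearby.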

How the data were processed

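ChIP-Seq was performed on whole Arabidopsis thaliana seedlings (2 AtSMOS1-GFP, 2 SCL28-GFP and 1 WT input sample). The deposited files are lists of peaks, per the file headers and labels one per sample, which the authors called at a q-value cutoff of 0.05 on TAIR10. The submitters' processing notes name Trimmomatic 0.38, Bowtie2 2.3.5, SAMtools 1.9 and MACS2 2.2.7.1, whereas the methods text names Bowtie, and the sources differ in fragment extension and in sharp or broad peak mode. Each deposited list gives positions, a fold enrichment (a ratio over the control), −log10 p, −log10 q and a score that the authors' caller set to the −log10 q times a constant and truncated. Against what the input peaks were called was not given in the sources used here.

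Genes were taken from the RefSeq annotation of TAIR10.1, whose nuclear chromosomes are those of TAIR10. Pseudogenes (4843) were left out, leaving 33056 genes. Shares were given exact Clopper-Pearson intervals and compared by two-sided Fisher exact tests with Benjamini-Hochberg adjustment over 12 tests (Python 3.11.15, numpy 2.4.6, scipy 1.17.1, matplotlib 3.10.9), at an adjusted p of 0.05. The scripts were tested on simulated data and recovered 1698 of 1698 planted items. Named genes were the 12 strongest, up to 3 per gene list, those closest to and farthest from the 3′ end, genes with several peaks, the largest replicate differences, and members at AtSMOS1, SCL28, SIM/SMR and KRP genes. No peak had the study's motif, so the rule for such peaks named none. The members and lists were chosen with earlier results of these data known. The patterns of the gene lists, the GRAS, AP2/ERF, kinase and inhibitor lists among them, were corrected after their matches were seen, and the TCP consensus, word counts, GC ranges, densities by distance and all printed sequences other than those of the strongest peaks were added after seeing the data. Peaks are not replicates of a condition, and the 2 samples per line are stated to be biological replicates without saying what was repeated, so intervals and p-values cover counting over peaks of these lists. A named item that is withheld is not reported here.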

Additional observations from a re-analysis of the deposited data

How the results depend on the processing

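Without SNOS1-GFP replicate 2 and replicate 1 in turn, and without each E1M-GFP replicate, the number of downstream peaks was 737 to 1151, the highest being the rule run on replicate 2 peaks alone (without SNOS1-GFP replicate 1). A −log10 q of at least 5 left 320. The share upstream of a neighbour was 19.8% with the neighbour's start within 1000 bp and 10.3% within 500 bp. With 1 mismatch allowed, 4.48% held the study's motif. No comparison of classes passed the adjusted threshold under any alternative run. The differences that changed sign stayed within the main intervals, except those in replicate 2 fold enrichment above the median. At a −log10 q of at least 5 the difference in the share called in replicate 2, against peaks within 1000 bp upstream, was −0.400 percentage points. Those in replicate 2 fold enrichment above the median were −2.70 against the same peaks and −3.27 against peaks inside genes. The main values were 3.29 (−1.29 to 7.84) and 2.75 (−1.78 to 7.27), so both fell below the main intervals. Input overlap against peaks farther upstream was −0.0978 with midpoints, and −0.299 to 0.0441 over leaving out each replicate. The study's motif, against peaks within 1000 bp upstream, differed by 0.133 with midpoints and by −0.0820 to 0.0450 over leaving out each replicate. The shares with the G-box (14.3 to 15.7%), TCP consensus (14.7 to 16.9%) and site II element (10.6 to 12.3%), alternatives added after seeing the data, stayed within the interval of the main value. No paired analysis was possible because shares of peaks come from no fit across samples. The lists hold no reads, so how far depth limits them was not assessed.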
